A study of Mus musculus with 16 samples.

Results

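The 10 genes described here encode integrin subunits of macrophages and ICAM1, a ligand of some of them: Itga4, Itga5, Itga6, Itgal, Itgam, Itgav, Itgax, Itgb1, Itgb2 and Icam1. They were chosen by name, as 10 of the 27179 genes of a table of RNA sequencing read counts, and all 10 were found and passed the filter on low counts. The cells were iBMDM MyD88-AGF, an immortalised macrophage line that was grown out of mouse bone marrow, and every group carried the genotype that the labels write as MyD88-AGF WT. Lipopolysaccharide (LPS), a bacterial glycolipid sensed through TLR4 and the adaptor MyD88, was given at 10 ng/mL for 6 h to 3 of the 4 groups. Responders were LPS-treated cells sorted for high side scatter, the light deflected by structures inside a cell. Bystanders were LPS-treated cells sorted for low side scatter. The LPS pool was LPS-treated cells passed through the sorter with no scatter gate, collected after the gated cells, and untreated cells were passed through it ungated with no LPS. Each group had 4 libraries, numbered 1 to 4. The labels do not say that these came from separate cultures, so the spread behind each p-value is that of these libraries alone and could be technical.

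Integrins are surface receptors made of 1 alpha and 1 beta subunit, and the pair decides what the cell can hold on to. Itgb1 encodes the beta subunit that joins Itga4 (a receptor for VCAM1 and fibronectin), Itga5 (the fibronectin receptor) and Itga6 (a laminin receptor), and it is 1 of several partners of Itgav, whose receptors bind vitronectin and related proteins. Itgb2 encodes the leukocyte beta subunit, which joins Itgal to form LFA-1, Itgam to form Mac-1, and Itgax to form a further complement receptor. ICAM1 is a surface protein that LFA-1 and Mac-1 bind, and its gene is a well-known target of NF-kappaB in inflamed tissue.

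In the GRCm38 mouse genome, Itgal (chromosome 7, 127296139 to 127335137), Itgam (chromosome 7, 128062640 to 128118491) and Itgax (chromosome 7, 128129526 to 128150657) lie on 1 chromosome. The RefSeq spans of Itgam and Itgax are 11 kb apart, and those of Itgal and Itgam 728 kb. Itga4 (79255426 to 79333114), Itga6 (71786886 to 71858427) and Itgav (83722303 to 83806917) are on chromosome 2. Itga5 is on chromosome 15 (103344286 to 103366791), Itgb1 on chromosome 8 (128685654 to 128733579), Itgb2 on chromosome 10 (77530329 to 77565708) and Icam1 on chromosome 9 (21015940 to 21028814).

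Promoter sequence from RefSeq (GRCm38.p6) was matched for 7 of the 10 genes, all but Itga6, Itgal and Itgb2. The 250 bases before the annotated start are shown for Icam1, Itga5 and Itga4. Icam1 was higher in both sorted groups than in untreated cells. Itga5 had the widest spread between groups among the abundant genes, and Itga4 was lower in responders than in bystanders. Capitals mark every match to a searched motif on either strand: GGAANTTCC (a palindromic NF-kappaB-type site), TGANTCA (AP-1), GAGGAA (the core of PU.1 sites, a macrophage factor) and GGGCGG (Sp1). The NF-kappaB consensus (GGGRN followed by WYYCC) and TATAAA had no match in the 7 windows. In these letters R is A or G, W is A or T, and Y is C or T. Icam1 is chr9:21015690-21015939 on the plus strand, Itga5 is chr15:103366792-103367041 on the minus strand, and Itga4 is chr2:79255176-79255425 on the plus strand, each printed 5′ to 3′ along its gene.
Icam1: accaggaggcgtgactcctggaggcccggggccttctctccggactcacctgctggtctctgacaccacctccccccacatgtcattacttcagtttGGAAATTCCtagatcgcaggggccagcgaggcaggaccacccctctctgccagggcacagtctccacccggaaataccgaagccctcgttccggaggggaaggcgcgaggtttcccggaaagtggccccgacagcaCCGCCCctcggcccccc
Itga5: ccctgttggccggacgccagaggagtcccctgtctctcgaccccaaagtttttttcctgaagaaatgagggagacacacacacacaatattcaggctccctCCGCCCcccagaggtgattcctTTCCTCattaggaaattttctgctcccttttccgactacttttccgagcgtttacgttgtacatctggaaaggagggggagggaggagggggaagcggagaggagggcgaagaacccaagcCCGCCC
Itga4: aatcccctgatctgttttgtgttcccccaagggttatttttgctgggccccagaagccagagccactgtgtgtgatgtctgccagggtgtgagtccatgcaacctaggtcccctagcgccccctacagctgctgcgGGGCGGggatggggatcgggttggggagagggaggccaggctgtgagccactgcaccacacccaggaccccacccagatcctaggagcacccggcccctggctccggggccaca
The palindromic GGAANTTCC match in Icam1 lay 153 to 145 bases before the start, and none of the other 6 windows held one. Over 32851 RefSeq windows of 250 bases, 0.813% held this motif and 3.9% the NF-kappaB consensus. GAGGAA was found in 4 of the 7 windows (Itga5, Itgam, Itgav and Itgb1), against 23.3% of all windows. GGGCGG was found in 5 of the 7 (all but Itgav and Itgax), against 32.7% of all windows. TGANTCA was found in Itgax alone among the 7, against 6.75% of all windows. It lay 56 to 50 bases before the start that the window used. TATAAA was found in none of the 7, against 12.4%. For Itgax and Itgav the start used lay inside the gene spans given above. Their windows ended at 128129549 on chromosome 7 and at 83724396 on chromosome 2, while the other windows bordered the printed spans. The palindrome was added to the search with the Icam1 window in view, so its match is a description of the letters.

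Library totals ran from 15287344 to 25193162 counts. The macrophage marker list of 8 genes summed to 4036 to 4079 CPM in responders, 3388 to 3416 CPM in bystanders, 3860 to 3900 CPM in the LPS pool and 2985 to 3017 CPM in untreated libraries. Its members did not move together. Cd14, Adgre1 and Fcgr1 averaged 773, 292 and 561 CPM in responders, against 250, 113 and 396 CPM in bystanders. Csf1r and Cd68 averaged less in responders, at 550 and 706 CPM against 699 and 736 CPM. Lyz2 differed little, at 1173 ± 21.6 CPM against 1208.5 ± 15.7 CPM (SD). Mertk and Mrc1 averaged at most 2.14 and 4.24 CPM in any group. Mertk was at 0.689 CPM in responders against 2.14 CPM in bystanders, and Mrc1 at 4.24 against 2.80 CPM. Neutrophil and lymphocyte lists summed to at most 2.24 and 2.71 CPM in any library, with Cd3e at 0 reads throughout. A list of 8 dendritic cell markers summed to 49.0 to 55.6 CPM in responders, 242 to 250.4 CPM in bystanders, 57.5 to 61.9 CPM in the LPS pool and 95.2 to 98.4 CPM in untreated libraries. That sum was mostly Clec10a, and Flt3 averaged under 1 CPM in each group. The endothelium list summed to 18.1 to 19.9 CPM in responders, 40.9 to 46.5 CPM in bystanders, 16.1 to 21.3 CPM in the LPS pool and 28.9 to 36.1 CPM in untreated libraries. The fibroblast list varied within groups, from 1.94 to 76.9 CPM among bystanders and up to 105.59 CPM in the LPS pool. The part of these transcripts in the results was not tested. There were 6 libraries with neural transcripts (responder 1, bystander 3 and 4, LPS pool 3 and 4, untreated 1), in which 22 low neural genes summed to 9.82 to 17.2 CPM, beside 1.38 to 3.09 CPM in the other 10. Bystander 3 and 4 also held Il1b, an NF-kappaB-driven cytokine gene, at 64.1 and 65.1 CPM, against 7.79 and 9.03 CPM in bystander 1 and 2. In 5 of the 6 comparisons described below the calls of the 10 genes were the same in number with and without these libraries, and the values that moved most are given with and without them.

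Levels are given as CPM, read counts relative to a library total that was adjusted by edgeR's TMM factors, and levels compared between genes are further divided by transcript length (RPKM). By RPKM, Itgb1, Itgb2, Icam1, Itgam and Itga5 were abundant in responders, at means of 156, 140.4, 142, 108 and 113 RPKM. Itga4 and Itgav were intermediate at 21.8 and 17.2 RPKM, and Itga6, Itgal and Itgax were low at 1.92, 1.77 and 1.02 RPKM. In responders the neighbours Icam1 and Itgb2 overlapped, as did Itga6 and Itgal, while all other neighbours in the order were separate. Bystanders had the order Itgb1, Itgb2, Icam1, Itgam, Itga4, Itga5, Itgav, Itga6, Itgax and Itgal, with no overlap between neighbours. The LPS pool had the order Itgb1, Itgb2, Icam1, Itgam, Itga5, Itga4, Itgav, Itga6, Itgal and Itgax, and in it Itgam overlapped Itga5 and Itgal overlapped Itgax. Untreated cells had Itgb2 first at 120.0 RPKM and Itgb1 next at 111 RPKM, then Itgam, Icam1, Itga5, Itga4, Itgav, Itga6, Itgax and Itgal, again with no overlap between neighbours. The order depends on the length used. Over all annotated exon bases instead of 1 transcript, Icam1 averaged 82.7 RPKM in responders, below both Itgam and Itga5, and Itgal stood above Itga6 there. In bystanders Itga5 then stood above Itga4, at 25.5 against 21.9 RPKM, and Itgam above Icam1. In the LPS pool Itgam and Itga5 stood above Icam1, and Itgax above Itgal.

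**Figure D1:**
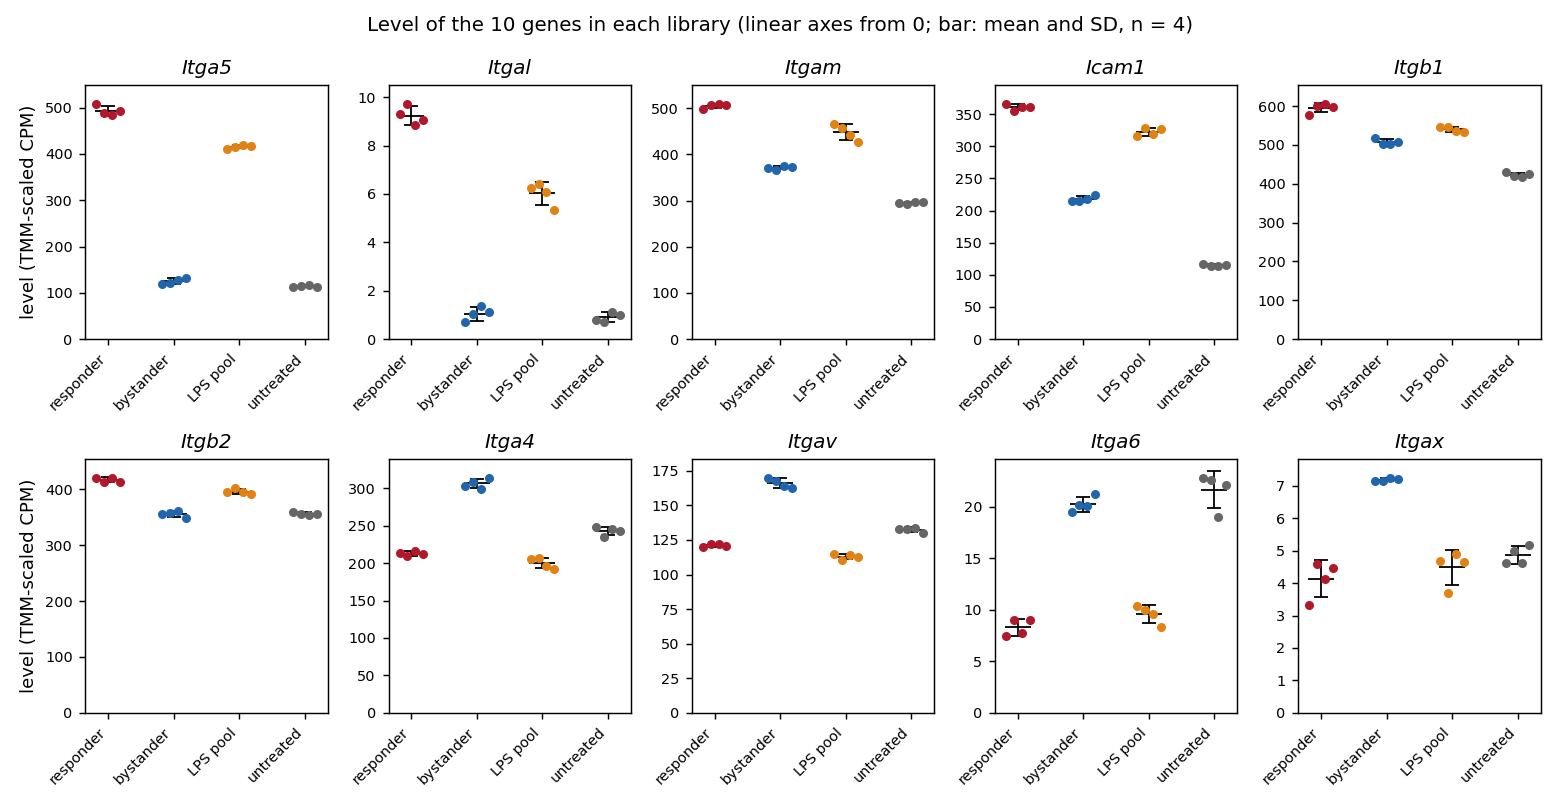
Level of each gene in each of the 16 libraries in TMM-scaled CPM, on linear axes that start at 0; points are libraries, and the bar is the mean with its SD (n = 4 per group). Itga5 and Itgal are high in responders and the LPS pool and low in bystanders and untreated cells, Icam1 is at 218 CPM in bystanders between 361 CPM in responders and 115 CPM in untreated cells, and Itgax is highest in bystanders.

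The comparison of responders with bystanders asks how 2 sorted fractions of the same LPS treatment differ. All 10 genes passed the test, 6 higher and 4 lower in responders, where 70% of the 12589 genes tested also passed (34.7% higher and 35.3% lower), and the count is to be read against that share. Itga5, Itgal, Itgam, Itgb1, Itgb2 and Icam1 were higher, and Itga4, Itga6, Itgav and Itgax were lower, by TMM scaling. The direction thus split within each family: both beta genes were higher, while of the alpha genes 3 were higher and 4 lower. Differences of at least 2-fold were found for 3 of the 10 (Itga5, Itgal and Itga6), against 11.2% of all genes. The median log2 fold change was 0.23 over the 10 genes and -0.01 over all genes. In bulk RNA, fewer cells with a transcript and less of it per cell cannot be told apart. Scaling by library totals alone put the median of all genes at -0.20, and 27.8% of all calls were then higher, in place of 49.5%. Under it Itgb1 and Itgb2 lost their calls, each at a log2 fold change of 0.04, with adjusted p = 0.0525 and 0.0727 by edgeR's quasi-likelihood test, and the other 8 calls stood.

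Itgal, the LFA-1 alpha subunit gene, had the largest fold of the 10 between the gates, on few reads. It stood at 9.32, 9.73, 8.86 and 9.05 CPM in responders, 0.687, 1.03, 1.36 and 1.11 CPM in bystanders, 6.24, 6.41, 6.08 and 5.35 CPM in the LPS pool and 0.77, 0.72, 1.13 and 1.00 CPM in untreated cells. The bystander values rest on 12, 17, 35 and 27 reads, and those of untreated cells on 17, 16, 22 and 24 reads. Every responder library and every LPS pool library stood above every bystander and untreated library, and the bystander and untreated ranges overlapped. Responders were 8.55-fold above bystanders (log2 fold change 3.10 ± 0.15 SE, adjusted p = 2.01e-27 by edgeR's quasi-likelihood test). The log2 fold change of Itgal was 3.43 in the 10 libraries without neural transcripts and 2.91 in the 6 with them.

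Itgam, the Mac-1 alpha subunit gene and by far the most abundant of the Itgb2 partners, moved by less. It had 498, 507, 509.6 and 506 CPM in responders, 370.4, 367, 375 and 373 CPM in bystanders, 466, 456, 442 and 426 CPM in the LPS pool and 295, 292, 296 and 297 CPM in untreated cells. The 4 groups did not overlap, with responders highest and untreated cells lowest. The log2 fold change of responders over bystanders was 0.44 ± 0.021 SE (adjusted p = 7.16e-28, edgeR). In the GENCODE annotation 68.7% of Itgam's exon bases are shared with Gm49368 on the same strand, so its counts depend on how shared reads were assigned, which the sources used here do not give.

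Itgax, the third Itgb2 partner and a gene commonly read as a dendritic cell and macrophage marker, went the other way. It stood at 3.33, 4.59, 4.13 and 4.48 CPM in responders, 7.16, 7.15, 7.26 and 7.21 CPM in bystanders, 4.68, 3.7, 4.90 and 4.65 CPM in the LPS pool and 4.62, 4.99, 4.63 and 5.18 CPM in untreated cells. Bystanders stood above all 12 other libraries. Responders were lower than bystanders by a log2 fold change of -0.80 ± 0.11 SE (adjusted p = 8.6e-09, edgeR). The dendritic cell list was also highest in bystanders, and its part in the Itgax level was not tested.

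Itgb2, the shared beta subunit gene, differed little across the 4 groups. It had 421, 414, 421 and 412 CPM in responders, 356, 358, 362 and 348 CPM in bystanders, 396, 403, 395 and 391 CPM in the LPS pool and 359.8, 355, 355 and 356 CPM in untreated cells. Responders and the LPS pool stood above both other groups by TMM scaling, and bystanders overlapped untreated cells. The log2 fold change of responders over bystanders was 0.23 ± 0.020 SE (adjusted p = 5.69e-16, edgeR).

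Icam1, the ligand gene, was graded over the groups. It had 366, 355, 361 and 361 CPM in responders, 215, 214, 218 and 225 CPM in bystanders, 316, 328, 318 and 326 CPM in the LPS pool and 116, 113, 114 and 116 CPM in untreated cells. None of the 4 groups overlapped, and bystanders stood well above untreated cells. Responders were 1.65-fold above bystanders (log2 fold change 0.73 ± 0.022 SE, adjusted p = 2.16e-38, edgeR). Of its annotated exon bases 11.7% lie opposite the antisense gene Gm47079, and strand use in counting is not given in the sources used here.

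Itga5, the fibronectin receptor alpha gene, showed the largest difference among the abundant genes. It had 508, 488, 483 and 493 CPM in responders, 119.7, 122, 129 and 132 CPM in bystanders, 411, 416, 419 and 417 CPM in the LPS pool and 113, 115, 117 and 112 CPM in untreated cells. Bystanders were close to untreated cells and far from responders, and bystander 3 and 4 were the higher ones of their group. Responders were 3.91-fold above bystanders (log2 fold change 1.97 ± 0.024 SE, adjusted p = 3.79e-59, edgeR).

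Its partner gene Itgb1 had 578, 601, 606 and 599 CPM in responders, 518, 503, 503 and 508 CPM in bystanders, 547, 545, 535 and 533 CPM in the LPS pool and 431, 420.1, 419 and 425 CPM in untreated cells. The groups did not overlap, and untreated cells were lowest by TMM scaling. The log2 fold change of responders over bystanders was 0.23 ± 0.020 SE (adjusted p = 2.66e-16, edgeR), a small fraction of the change in Itga5.

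Itga4, Itgav and Itga6 were lower in responders than in bystanders. Itga4 had 214, 209, 216 and 212 CPM in responders, 303, 309, 299 and 314 CPM in bystanders, 205, 207, 197 and 192 CPM in the LPS pool and 248, 235, 245 and 242 CPM in untreated cells. Bystanders stood above untreated cells, and responders and the LPS pool below them, with no overlap. Itgav had 120.0, 122, 122 and 120.4 CPM in responders, 170.2, 167, 164 and 162 CPM in bystanders, 115, 110.4, 114 and 113 CPM in the LPS pool and 133, 133, 134 and 129.9 CPM in untreated cells, in the same order of groups as Itga4. Itga6 had 7.42, 8.99, 7.77 and 9.01 CPM in responders, 19.5, 20.2, 20.02 and 21.2 CPM in bystanders, 10.4, 10.0, 9.62 and 8.30 CPM in the LPS pool and 22.8, 22.6, 19.0 and 22.1 CPM in untreated cells. For Itga6 bystanders overlapped untreated cells and responders overlapped the LPS pool. Between the gates the log2 fold changes were -0.53 ± 0.023 SE for Itga4 (adjusted p = 2.82e-29, edgeR), -0.45 ± 0.025 SE for Itgav (adjusted p = 2.76e-24, edgeR) and -1.29 ± 0.077 SE for Itga6 (adjusted p = 7.15e-23, edgeR). In GENCODE, 8.04% of Itga4's exon bases lie opposite Cerkl and 5.9% of Itgav's opposite Gm13684.

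**Figure D2:**
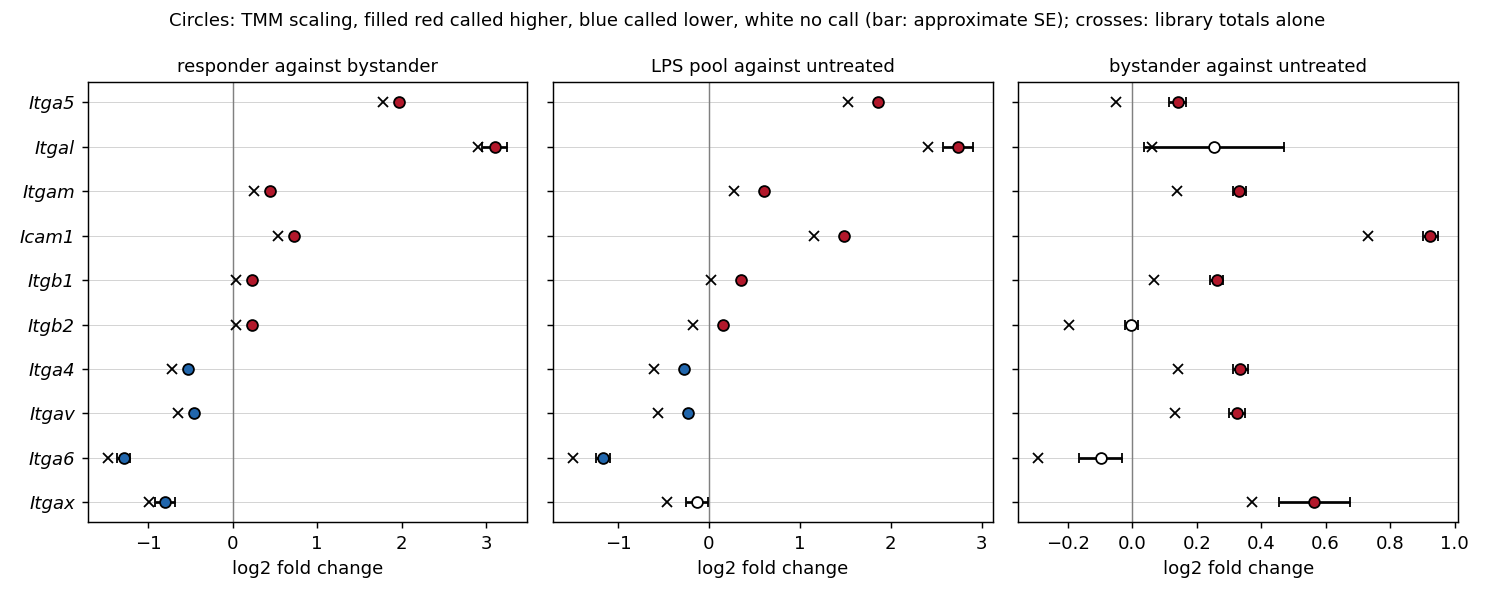
Log2 fold changes of the 10 genes in 3 comparisons, with circles for TMM scaling (bar: approximate SE; red called higher, blue called lower, white no call) and crosses for library totals alone; each panel has its own horizontal range. The crosses lie to the left of the circles in all 3 panels, and they cross 0 for Itgb2 in the LPS pool against untreated cells (0.15 and -0.18) and for Itga5 in bystanders against untreated cells (0.14 and -0.05).

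The LPS pool against untreated cells gives the response of the ungated population and shares no library with responders against bystanders. Of the 10 genes, 6 were higher and 3 lower, against 71.9% of all genes called (34.1% higher and 37.8% lower). At least 2-fold changes were found for 4 (Itga5, Itgal, Icam1 and Itga6), against 13.5% of all genes. Itgal was 6.67-fold higher in the LPS pool (adjusted p = 5.55e-23, edgeR), Itga5 3.64-fold (adjusted p = 4.12e-58) and Icam1 2.80-fold (adjusted p = 6.47e-54). Itgam and Itgb1 were higher by log2 fold changes of 0.60 ± 0.022 and 0.35 ± 0.020 SE, although library totals alone left Itgb1 at 0.02 with no call (adjusted p = 0.28). Itgb2 was higher by 0.15 ± 0.020 SE with TMM scaling and lower by -0.18 with library totals alone, so its direction depends on the scaling. Itga6, Itga4 and Itgav were lower in the LPS pool, by log2 fold changes of -1.17 ± 0.077, -0.28 ± 0.024 and -0.23 ± 0.027 SE. Itgax, at -0.13 ± 0.12 SE, did not pass the test (adjusted p = 0.346), and did so with library totals alone at -0.46 (adjusted p = 0.000611). Itgax stood at -0.25 in the libraries without neural transcripts and 0.05 in those with them, neither a call. The median over the 10 genes was 0.25 and over all genes -0.03, or -0.36 for all genes with library totals alone, which gave 21.6% higher calls in place of 47.4%. The 9 genes called in both comparisons had the same sign in both, as did 81.9% of the 7079 genes of the whole table that were called in both.

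The comparison of bystanders with untreated cells sets LPS-treated cells of low side scatter against ungated cells given no LPS. Gate and LPS differ together there, as in responders against untreated cells, and cannot be told apart. None of the 10 genes was called lower and 7 were called higher with TMM scaling, where 67.1% of all genes were called, 34.1% higher and 32.9% lower. With library totals alone the 10 gave 6 higher and 2 lower. None reached 2-fold, against 10.5% of all genes, and the median log2 fold change was 0.29 over the 10 genes and 0.01 over all genes. Icam1 changed most, 1.90-fold higher in bystanders (log2 fold change 0.93 ± 0.024 SE, adjusted p = 4.74e-42, edgeR). Itgax was higher by 0.57 ± 0.11 SE (adjusted p = 8.86e-06, edgeR), Itga4 by 0.34 ± 0.023, Itgam by 0.33 ± 0.022, Itgav by 0.33 ± 0.025 and Itgb1 by 0.26 ± 0.020. Itga4, Itgav and Itgax were thus higher in bystanders than in untreated cells, while the LPS pool was lower than untreated cells for Itga4 and Itgav and not called for Itgax. Itga5 was higher by 0.14 ± 0.027 SE (adjusted p = 4.45e-06, edgeR) with TMM scaling, and stood at -0.05 with no call (adjusted p = 0.0805) with library totals alone. It was 0.08 (adjusted p = 0.0308) in the 10 libraries without neural transcripts and 0.21 (adjusted p = 0.000921) in the 6 with them. Itgal, Itga6 and Itgb2 had log2 fold changes of 0.25 ± 0.22, -0.10 ± 0.066 and -0.00 ± 0.020 SE and did not pass the test (adjusted p = 0.307, 0.191 and 0.924, edgeR). The sign of Itgal there turned with the libraries used, at -0.15 in those without neural transcripts (adjusted p = 0.723) and 0.68 in those with them (adjusted p = 0.153), neither a call. With library totals alone Itga6 was lower at -0.29 and Itgb2 at -0.20, both called (adjusted p = 9.14e-05 and 1.69e-13), and the share of higher calls over all genes was 27.5% in place of 50.9%, around a median of -0.18.

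Responders against untreated cells, which shares responders with the first comparison and untreated cells with the LPS pool and bystander comparisons, gave 6 higher and 3 lower genes against 75% of all genes called (36.5% higher and 38.5% lower). Itgal was 10.2-fold, Itga5 4.32-fold and Icam1 3.14-fold higher in responders, and Itga6 was 2.61-fold lower. Itgax did not pass the test at -0.23 ± 0.12 SE (adjusted p = 0.0712, edgeR), although its 4 responder libraries all lay below the 4 untreated ones. Without responder 2 it passed at -0.29 (adjusted p = 0.0444), and with library totals alone at -0.62 (adjusted p = 4.72e-06). Itgax stood at -0.16 in the libraries without neural transcripts and -0.47 in those with them, neither a call. Itgb2 was 0.23 with TMM scaling and -0.16 with library totals alone. The higher share of all calls was 48.7% with TMM scaling and 21.7% with library totals alone.

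The gated groups were also set against the LPS pool, with libraries that the comparisons above share. In mean CPM the ungated LPS pool lay closer to responders than to bystanders for all of the genes but Itgb1, by amounts given below. Responders were higher than the LPS pool for 8 of the 10 genes and lower for none, where 25.5% of all genes were called, 16% higher and 9.49% lower. With library totals alone 5 were higher and Itga6 lower, and Itga4, Itgav and Itgb2 lost their calls. No gene reached 2-fold, against 0.373% of all genes. The folds were small: 1.53 for Itgal, 1.19 for Itga5 and 1.05 to 1.13 for the other 6. Itga6 and Itgax were not called (adjusted p = 0.0679 and 0.606, edgeR), and Itga6 was called lower without responder 2, responder 4 or LPS pool 4, at adjusted p = 0.0460, 0.0460 and 0.0262. In the 10 libraries without neural transcripts 6 genes were called, with Itga4 and Itgb2 losing their calls. The share of all genes called in that smaller fit is not given here, so the loss cannot be read as particular to these genes. Itgax, uncalled in each, stood at 0.08 in the libraries without neural transcripts and -0.52 in those with them. Of all calls in this comparison 62.7% were higher with TMM scaling and 30.6% with library totals alone.

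Bystanders differed from the LPS pool for all 10 genes, 4 higher (Itga4, Itga6, Itgav and Itgax) and 6 lower, against 67% of all genes called (34.1% higher and 32.9% lower), and 3 were at least 2-fold apart against 9%. Itgb1 was lower in bystanders at -0.09 with TMM scaling and higher at 0.05 with library totals alone. Itgb2 lost its call with library totals alone, at -0.02 (adjusted p = 0.362), which left 5 genes higher and 4 lower. The higher share of all calls was 50.9% with TMM scaling and 68.4% with library totals alone. If 0% is the bystander mean and 100% the responder mean in CPM, the LPS pool mean stood at 36.5% for Itgb1, 56.9% for Itgam, 60.7% for Itgal, 65.9% for Itgb2, 73.0% for Icam1, 78.9% for Itga5, 88.6% for Itgax and 89.2% for Itga6. For Itga4 and Itgav it stood at 113% and 118%, outside the range of the gated groups. With TMM scaling both genes were higher in responders than in the LPS pool, at 213 ± 2.95 against 200.2 ± 7.001 CPM for Itga4 and 121 ± 1.00 against 113 ± 1.91 CPM for Itgav. With library totals alone neither was called, at log2 fold changes of 0.03 and 0.05. In the libraries without neural transcripts Itga4 stood at 0.04 with no call (adjusted p = 0.283, edgeR). Itgav stood at 0.11 there and kept its call (adjusted p = 0.0105, edgeR). The LPS pool was collected after the gated cells, so collection order goes with the gate and the 2 cannot be told apart.

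Because alpha and beta subunits act as pairs, the ratio of partner genes within a library was also compared, which does not depend on how libraries are scaled. In all, 24 comparisons of log2 count ratios were made with exact two-sided permutation tests of 4 against 4 libraries, where the smallest possible p is 0.0286, and after adjustment over the 24 the smallest was 0.0327. Responders differed from bystanders in all 8 ratios, with no overlap between the groups (exact permutation, adjusted p = 0.0327 for each). Ratios of other gene pairs were not examined, and 70% of all genes were called between responders and bystanders. The counts of differing ratios, here and below, can therefore not be read as particular to these pairs. The ratios also share Itgb1, Itgb2 or Itgal, so they are not separate results. Itga5 over Itgb1 was -0.19, -0.30, -0.33 and -0.28 in responders and -2.11, -2.04, -1.97 and -1.94 in bystanders, a difference of 1.74. The other Itgb1 ratios ran the opposite way, with differences of -0.76 for Itga4, -0.69 for Itgav and -1.52 for Itga6. Over Itgb2, the differences were 2.92 for Itgal, 0.22 for Itgam and -1.04 for Itgax. Icam1 over Itgal, a ligand over a subunit of its receptor, was lower in responders by -2.43.

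The LPS pool differed from untreated cells in the same 8 ratios and with the same signs (exact permutation, adjusted p = 0.0327 for each), by 1.51 for Itga5 over Itgb1 and 2.57 for Itgal over Itgb2. Itgax over Itgb2 differed least there, by -0.27, and lost its call without LPS pool 2 (difference -0.17, exact permutation adjusted p = 0.0596) or without any 1 untreated library. The groups did not overlap with or without these libraries. A test of 3 against 4 libraries can miss the threshold even so, and calls lost in this way, here and below, do not show overlap. Bystanders differed from untreated cells in 5 of the 8 ratios. Itgam over Itgb2 was 0.06, 0.04, 0.05 and 0.10 in bystanders and -0.29, -0.28, -0.26 and -0.26 in untreated cells, a difference of 0.33. Itgax over Itgb2 was higher by 0.57 and Icam1 over Itgal by 0.73. Itga5 over Itgb1 was lower in bystanders by -0.13 and Itga6 over Itgb1 by -0.36. Itga4 and Itgav over Itgb1 differed by 0.07 and 0.06 with overlap (exact permutation, adjusted p = 0.0596 for each), and Itgal over Itgb2 by 0.19 (adjusted p = 0.514, exact permutation). Leaving out 1 bystander or untreated library gave 3 to 4 calls, with Itga5 over Itgb1, Itga6 over Itgb1 or Icam1 over Itgal among those lost.

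**Figure D3:**
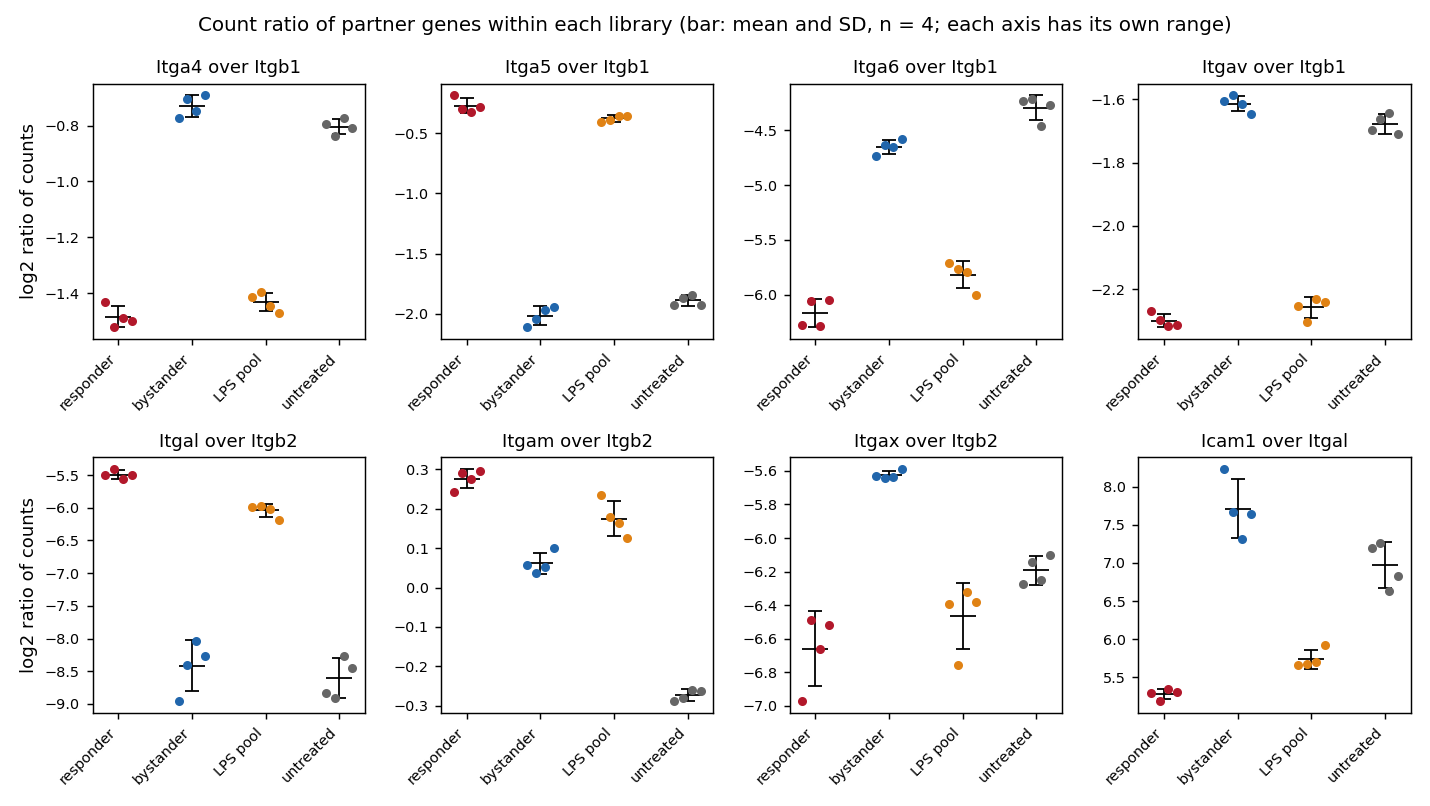
Log2 ratio of the counts of partner genes within each library, with points for libraries and bars for the mean and SD (n = 4 per group); each vertical axis has its own range. Itga5 over Itgb1 lies between -0.33 and -0.19 in responders and between -2.11 and -1.94 in bystanders, while Itga4, Itgav and Itga6 over Itgb1 are lower in responders than in bystanders.

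On the RPKM scale the groups differed in the make-up and in the sum of the listed alpha genes that can join Itgb1. Itga4, Itga5, Itga6 and Itgav summed to 153 ± 2.3 RPKM in responders, 88.3 ± 1.41 RPKM in bystanders, 133.6 ± 0.61 RPKM in the LPS pool and 74.7 ± 0.665 RPKM in untreated cells (SD, n = 4 each). Itga5 made up 73.3 ± 0.518% of that sum in responders and 32.5 ± 1.06% in bystanders, against 71.0 ± 0.601% of it in the LPS pool and 34.9 ± 0.577% of it in untreated cells. Itga4 was 14.2 ± 0.273% in responders and 35.5 ± 0.47% in bystanders, with 15.3 ± 0.497% for the LPS pool and 33.2 ± 0.629% for untreated cells. With the length of all exon bases Itga5 made up 78.5 ± 0.44% in responders and 39.1 ± 1.16% in bystanders, and Itga4 11.95 ± 0.242% in responders and 33.7 ± 0.516% in bystanders, so which of the 2 leads in bystanders depends on the length. With either length the mix in bystanders was near that of untreated cells, and the mix in the LPS pool near that of responders. Among the 3 Itgb2 partners Itgam held 97.5 ± 0.137% in responders, 97.6 ± 0.0638% in bystanders, 97.7 ± 0.124% of the LPS pool sum and 97.9 ± 0.107% of the untreated one. Itgal's share was small in both gated groups, 1.60 ± 0.0701% in responders and 0.246 ± 0.0636% in bystanders. These shares were not tested. Itgav also pairs with beta subunits other than Itgb1, and Itga4 with that of Itgb7, which is described below. Alpha genes outside the list were not part of the sums.

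The TMM counts of the gene lists that follow are to be read against all genes tested. Of these, 34.7% were higher and 35.3% lower in responders than in bystanders (median -0.01). In the LPS pool against untreated cells 34.1% were higher and 37.8% lower, and in bystanders against untreated cells 34.1% higher and 32.9% lower. With library totals alone, 27.8% of all calls were higher in responders than in bystanders (median of all genes -0.20). The higher share of all calls was then 21.6% for the LPS pool and 27.5% for bystanders, each against untreated cells. List counts with library totals alone are to be read against these shares of calls. Of the 18 other integrin subunit genes, 7 passed the low-count filter, and between responders and bystanders 2 were higher, 2 lower and 3 not called (median -0.07), or 1 higher and 2 lower with library totals alone. Itgb7, the partner of Itga4 in gut-homing lymphocytes, averaged 128 ± 2.2 CPM in responders, against 96.5 ± 1.19 CPM in bystanders (log2 fold change 0.41, adjusted p = 4.6e-19, edgeR). Itgb5, an Itgav partner, averaged 33.2 ± 0.914 CPM in responders, against 53.2 ± 0.98 CPM in bystanders (-0.68, adjusted p = 6.25e-23, edgeR). It was also lower in the LPS pool than in untreated cells, with means of 40.1 ± 1.65 against 71.0 ± 1.54 CPM. Itgb3, a further Itgav partner, was lower in responders by -1.56 (adjusted p = 1.41e-17, edgeR) at a mean of 4.83 CPM over all libraries, and was named after its values were seen. Itgav and both of these partner genes were thus lower in responders than in bystanders. Itgb1, also a partner of Itgav, was higher there with TMM scaling (log2 fold change 0.23). In bystanders against untreated cells Itgb3 was higher (0.76) and Itgb5 lower (-0.42).

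Of 34 integrin ligand genes in the table other than Icam1, 16 were tested, and in responders against bystanders 6 were higher, 2 lower and 8 not called by TMM scaling (median 0.10), against 4 higher and 5 lower with library totals alone (median -0.09). In the LPS pool against untreated cells 7 were higher and 2 lower, or 6 and 5 with library totals alone. In bystanders against untreated cells 8 were higher and 1 lower, or 6 and 2 with library totals alone. C3, the complement protein whose fragment Mac-1 binds, averaged 808 ± 15.1 CPM in responders, against 286 ± 13.5 CPM in bystanders (2.82-fold, adjusted p = 2.22e-18, edgeR), and 641 ± 30.6 CPM in the LPS pool, against 69.6 ± 2.36 CPM in untreated cells. Like Icam1 it was higher in bystanders than in untreated cells, by 4.12-fold. Thbs1, thrombospondin-1, averaged 9.68 ± 0.885 CPM in responders, against 2.07 ± 0.193 CPM in bystanders (4.72-fold), and Lamc1, a laminin chain gene, was 1.26-fold higher in responders. Mfge8, an RGD protein that bridges Itgav receptors to dying cells, was lower, with 119 ± 1.81 CPM in responders, against 152 ± 3.71 CPM in bystanders (-0.35, adjusted p = 1.07e-18, edgeR).

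Genes listed for a role in integrin activation, some of which restrain it, or in linkage to actin split evenly with TMM scaling. Against bystanders, responders had 19 of the 42 tested genes higher and 19 lower, with a median of -0.01 both over the list and over all genes. Library totals alone gave 15 higher and 24 lower. Vasp, an actin regulator of adhesion sites, averaged 513 ± 1.46 CPM in responders, against 156 ± 5.95 CPM in bystanders (3.28-fold, adjusted p = 2.1e-57, edgeR). Fyb, an adaptor that carries signals to integrins in T cells, was 2.44-fold higher and Cd47, a surface partner of Itgav receptors, 1.67-fold. Rasgrp3, an exchange factor for RAP1 and RAS, was lower, with 38.3 ± 1.61 CPM in responders, against 191 ± 6.25 CPM in bystanders (-2.32, adjusted p = 1.01e-55, edgeR). In the LPS pool against untreated cells 27 of the 42 were higher and 13 lower, but library totals alone gave 14 higher and 23 lower. In bystanders against untreated cells 26 were higher and 9 lower, or 17 and 15 with library totals alone. Cd47 was 2.43-fold higher in bystanders than in untreated cells, while Vasp was lower by -0.08 and Rasgrp3 by -0.07 (adjusted p = 0.00395 and 0.0205, edgeR).

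Other leukocyte adhesion genes gave 13 of 19 tested genes higher and 4 lower in responders against bystanders (median 0.31), or 9 higher and 7 lower with library totals alone (median 0.12). Pvr, a nectin-like adhesion gene, was 1.67-fold higher and Cd44, the hyaluronan receptor gene, 1.35-fold, with 630.0 ± 9.01 CPM in responders, against 466 ± 9.80 CPM in bystanders. Emb and Alcam were lower by -0.64 and -0.52 (adjusted p = 6.85e-34 and 1.4e-31, edgeR), with Alcam, an immunoglobulin-family adhesion gene, with 342 ± 6.93 CPM in responders, against 491 ± 11.9 CPM in bystanders. Alcam, like Itga4 and Itgav, was higher in bystanders than in untreated cells (0.31, adjusted p = 6.68e-21, edgeR) and lower in the LPS pool than in untreated cells (-0.18, adjusted p = 1.47e-11, edgeR). In the LPS pool against untreated cells 14 of the 19 were higher and 4 lower, or 10 and 7 with library totals alone. In bystanders against untreated cells 14 were higher and 2 lower, or 10 and 9 with library totals alone.

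**Figure D4:**
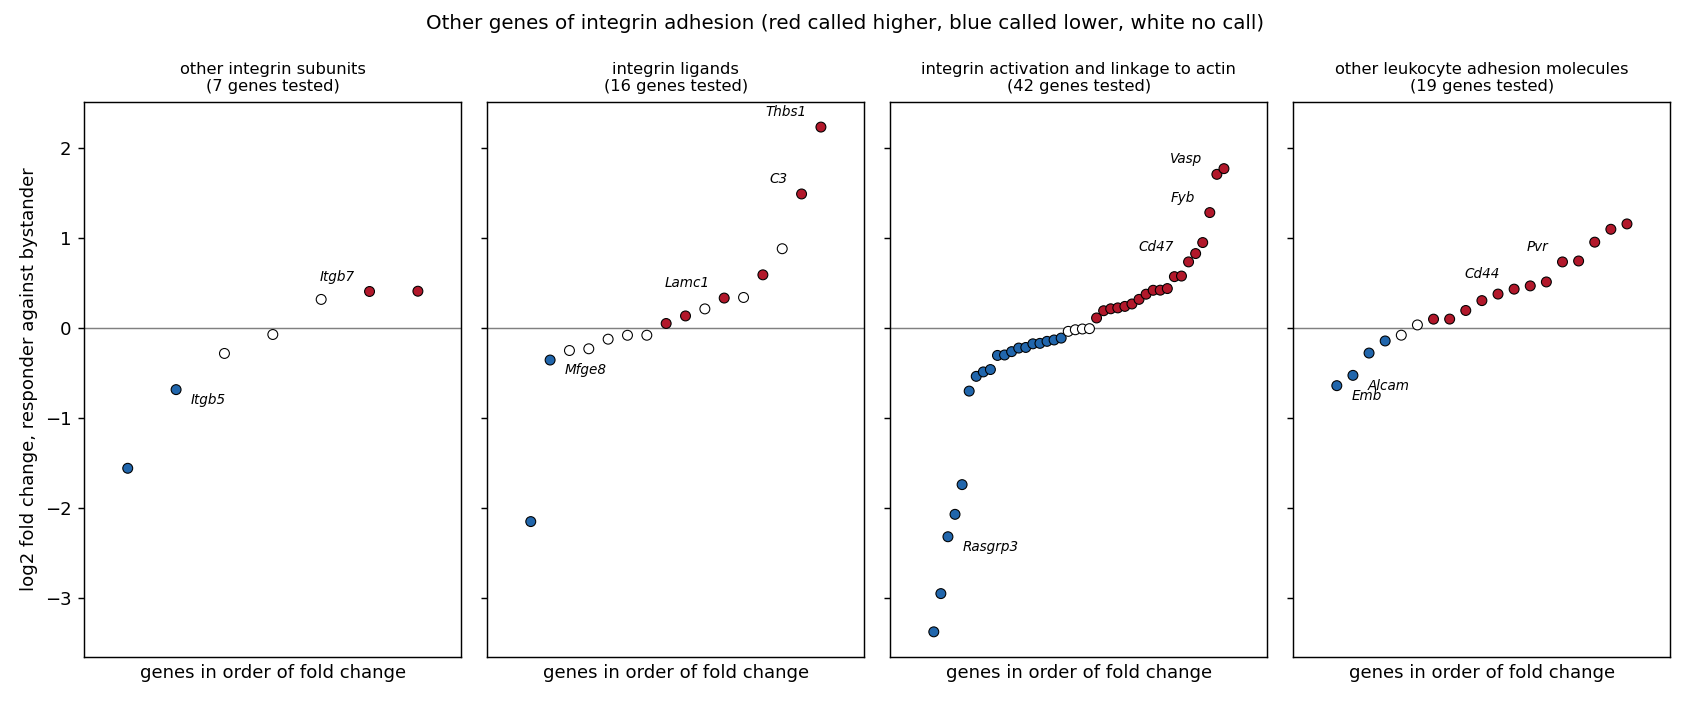
Log2 fold change of responders against bystanders for the tested genes of 4 lists, ordered by fold within each list, with red for called higher, blue for called lower and white for no call. Vasp lies at 1.71 and Rasgrp3 at -2.32 within the list of activation and linkage genes, which has 19 calls on either side of 0 with the TMM scaling plotted (15 above and 24 below with library totals alone).

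Over the 16 libraries, the genes whose pattern was nearest to each of the 10 were found among 9611 genes with a mean of at least 5 CPM, by the root mean square difference of centred log2 CPM. Icam1 was nearest to Mvp at 0.0386, then Tspo and Gsdmd. Itga5 was nearest to Rassf4 at 0.0641, and Itgal to Sod2, Clec4e and Ier3 at 0.255 to 0.272, a wider distance on few reads. Itga4 and Itgav lay close to each other, with Itgav the third gene on the list of Itga4 at 0.0503 and Osbpl8 and Atp6v1a among the nearest 3 of both. Itga6 was nearest to Mki67, the proliferation marker gene, at 0.102, with Gnpda1 and Man2a2 almost as near at 0.111 and 0.112. Itgax was nearest to Slc30a4 at 0.121. Itgam was nearest to Msn, which encodes the membrane-cytoskeleton linker moesin, at 0.0260, Itgb1 to Dnaja2 at 0.0261 and Itgb2 to Hnrnpk at 0.0276. The median distance over the compared genes was 0.640 for Itga6, 0.235 for Itgb2 and 1.47 for Itgal, so distances cannot be compared between members. These distances describe 4 group means seen through 16 libraries and carry no test.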

How the data were processed

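The deposited data were whole-number read counts by gene, in a single table that covers the 16 libraries. The tools named in the submitters' processing notes are featureCounts 2.1.1, HISAT2 2.2.2, fastp 1.1.0 and cutadapt 3.7, and the genome is GRCm38 (mm10). The sources used here give neither strand use, nor the annotation, nor how shared reads were handled. Of 27179 Entrez identifiers, 25275 were matched to symbols through RefSeq, and the other 1904 held 0.399% of the counts. The table also has 3 columns without values, and 0 columns that belong to other samples. Totals ran from 15287344 to 25193162 counts.

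The model was fitted in R 4.3.3 with edgeR 4.0.16: filterByExpr (12589 genes kept), TMM scaling, and 1 quasi-likelihood model with robust spread over all 16 libraries, 1 mean per group and no covariate. Tests were two-sided, p-values were adjusted by Benjamini-Hochberg over the whole table, and a call means an adjusted p below 0.05. Unless a permutation is named, adjusted p-values are those of this edgeR test. The SE of a log2 fold change is its size over the square root of its F value, an approximation. The median biological coefficient of variation was 0.0357. The fit and the permutation code were tested on simulated data. RPKM used the longest GENCODE transcript linked to a RefSeq mRNA. Count ratios had 0.5 added to both counts. Promoter windows came from RefSeq and were searched on both strands. Figures were drawn with matplotlib 3.10.9.

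The members and the gene lists were chosen with earlier results of these data known. Apart from the 10 members, Itgb3 (named after its values were seen), the marker genes and genes that overlap a member, genes were named by a rule: per list, up to 4 genes with the smallest p between responders and bystanders and a mean of at least 5 CPM, and up to 3 nearest genes per member. Alternatives were library totals alone, median-of-ratios size factors, no filter, DESeq2 1.42.0, a replicate block, only the 2 groups compared, leaving out each library, 5 counts added to the ratios, and the libraries with or without neural transcripts. No pair of replicates agreed within sampling noise (chi-square per degree of freedom 1.62 to 3.13).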

Additional observations from a re-analysis of the deposited data

Results flagged for a closer look

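Of 72 sets of 4 values examined (levels and ratios of the 10 genes by group), 2 held a library whose gap to its nearest neighbour, as a share of the range, exceeded Dixon's critical value for 4 libraries, and chance flags about 1 in 20 such sets. The log2 ratio of Icam1 over Itgal was 5.92 in LPS pool replicate 4, against 5.66 to 5.70 in the other 3 libraries of the LPS pool. The log2 ratio of Itgax over Itgb2 was -6.76 in LPS pool replicate 2, against -6.39 to -6.32 in the other 3. Both rest on low counts, 76 reads of Itgal in replicate 4 and 78 reads of Itgax in replicate 2.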

How the results depend on the processing

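The 60 fold changes of the 10 genes (6 comparisons) were recomputed under the alternatives, which gave 960 values: 933 kept their side of the threshold and, where called, their direction, 13 lost the call, 10 gained one and 4 changed sign with a call in either fit. Another 8 values with no call in either fit changed sign and are among the 933: 5 of Itgb2 and 1 of Itgal in bystanders against untreated cells, and 1 of Itgax in each of the LPS pool against untreated cells and responders against the LPS pool. None of the calls changed under DESeq2, size factors, no filter, only the 2 groups compared or the replicate block. Library totals alone changed 16 of the 60, and the cause was not tested. The 4 that changed sign under it were Itgb2 in the LPS pool and in responders against untreated cells (-0.18 and -0.16), Itga5 in bystanders against untreated cells (-0.052) and Itgb1 in bystanders against the LPS pool (0.046).

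Leaving out 1 library gave 9 to 10 calls for responders against untreated cells, 7 to 8 for bystanders against untreated cells, 8 to 9 for responders against the LPS pool, and unchanged counts of 10, 9 and 10 for responders against bystanders, the LPS pool against untreated cells and bystanders against the LPS pool. The shares of all genes called in the refits of this section are not given here, so the counts cannot be read as particular to these genes. For the count ratios leaving out 1 library gave 8 calls for responders against bystanders, 7 to 8 for the LPS pool against untreated cells and 3 to 4 for bystanders against untreated cells. Adding 5 counts in place of 0.5 left 8, 8 and 5 calls. Itgal and Itgax rest on 12 to 197 reads per library, which limits their precision.

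The libraries without neural transcripts gave 6 calls for responders against the LPS pool in place of 8, on fewer libraries. Those with neural transcripts were 1 or 2 per group, too few for a count of calls to be read. This split was chosen after seeing the data: the planned rule on the sum of the neural list found no library (highest sum 1.25 times its median, under 3 times) and was not run.

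Same-numbered libraries did not deviate together (correlations -0.07 to 0.24 over 24 pairs, 1 above 0.1, and 5 of 16 libraries closest to their own number), so the replicate block is an alternative only. With the replicate block in edgeR the counts were 10, 9, 9, 7, 8 and 10 calls, as without it. For the paired count ratios it left 0 calls in all 3 comparisons, since sign flips of 4 pairs cannot give p below 0.125.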
